A study of Mus musculus with 9 samples.

Results

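The genes described here encode amino acid transporters, and the measurements are the histone marks that covered them in lung endothelial cells, the cells that line the blood vessels of the lung. The set was chosen by name: it held the protein-coding genes of the NCBI RefSeq table of mouse GRCm38.p6 whose symbols begin with Slc1a, Slc7a, Slc36a, Slc38a or Slc43a, without Slc7a11, Slc7a9, Slc7a13 and Slc1a1. This gave 36 genes, of 21883 protein-coding genes on the numbered chromosomes, X and Y. The rule uses names alone and no measured value, though it was written with earlier results of these data known. Each gene was given a window that ran from 2 kb before to 2 kb after its annotated span, and a peak was counted for a gene if it shared at least 1 base with the window.

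All cells came from wild-type (WT) mice. No treatment is named, and the labels used here name no age, sex or strain. ACT-seq was used: an antibody bound to chromatin brings a Protein A/G-Tn5 transposase, which cuts and tags the nearby DNA. There were 9 libraries of 1 antibody each: H3K4me3, H3K9ac, H3K27ac, H3K18ac, H4K8ac, H3K23ac, H2AK5ac, H3K14ac, and IgG, an antibody with no histone target that served as the control. Because each antibody had 1 library, no value below has a replicate error and no p-value is given.

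Amino acid transporters of the Slc families move amino acids across the plasma membrane and across the membranes of lysosomes. Some exchange amino acids, and some drive them uphill with sodium or protons. Most light chains of the Slc7 family work only when joined to a heavy chain, Slc3a1 or Slc3a2. Trimethylation of histone H3 at lysine 4 (H3K4me3) is typical of active gene starts. Acetylation of histone lysines is found at active gene starts and enhancers, and lysosomal amino acid sensing feeds into mTORC1, a kinase complex that couples nutrients to growth.

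The deposited table held 1309635 regions under 578465 shared names, because 8 peak lists had been joined. The lists were separated as described under the processing, and each carries the name of the library whose reads were densest in it after scaling for depth. That density exceeded the next library by a factor of 23.8 in the H2AK5ac list, and by a factor of 1.99 in the H3K27ac list and 2.24 in the H3K14ac list, where the next library was IgG. Library totals ran from 1477463 to 10044130 reads for the marks, against 365999 for IgG. The number of peaks ran from 48943 for H3K9ac to 578465 for H3K14ac. Of 12 endothelial marker genes, 11 had peaks of all 8 lists and Cldn5 had none, against 3 of 10 markers of lung epithelium, 2 of 10 of leukocytes and 2 of 10 of mesenchyme. Over all protein-coding genes the share with all 8 lists was 44.6%. Summed over the 8 lists, the median coverage of these marker lists was 527 bases per kb of window for endothelium (range 0 to 1182), 249 for epithelium (11.6 to 731), 223 for leukocytes (19.8 to 950) and 154 for mesenchyme (0 to 399). Among the markers of other cells, only Tcf21 of mesenchyme had no peak at all. The part of other cell types in the values of the transporter genes was not tested.

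Every one of the 36 transporter genes carried at least 1 peak, and 19 carried peaks of all 8 lists, or 52.8%, against 44.6% of all protein-coding genes. None was free of peaks, against 7.14% of all genes. H3K14ac covered all 36 members, against 89.8% of all genes, and H4K8ac covered 33 members, against 75.4%. H3K18ac covered 32 members, against 77.3%. These 3 lists also held the most peaks in the genome. H3K4me3 covered 29 members, against 69.6%, and H3K23ac covered 29, against 69.7%. H3K27ac covered 28 members, against 71.6%, and H2AK5ac covered 25, against 55.2%. Of the 8 lists, H3K9ac alone lay below the share of all genes: 19 members had it, or 52.8%, against 59.2%.

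Over the span, the members with H3K9ac were those with every list. All 19 members with an H3K9ac peak had peaks of every other list too, whereas 75.3% of all genes with an H3K9ac peak did. It follows that the 17 members that lacked at least 1 list all lacked H3K9ac, which is no separate observation. Among all genes that lacked a list, 73.7% lacked H3K9ac. H2AK5ac was missing from 11 of those 17 members, against 80.8% of the corresponding genes. The 19 members with H3K9ac were Slc1a4, Slc1a5, Slc7a1, Slc7a5, Slc7a6, Slc7a7, Slc7a8, Slc7a15, Slc36a4, Slc38a1, Slc38a2, Slc38a4, Slc38a6, Slc38a7, Slc38a9, Slc38a10, Slc43a1, Slc43a2 and Slc43a3. This match was not found in other counts. Within 2 kb of the gene ends 16 members had H3K9ac (50.3% of all genes) and 11 had all 8 lists (31.1%). Of the 26 members with listed starts, 13 had H3K9ac within 1 kb of one (48.1% of genes with listed starts) and 8 had all 8 lists (26.3%). With only wider peaks over the span, 15 of the 36 members had H3K9ac (44.7% of all genes) and 11 had all 8 lists (18.6%).

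The members' windows had a median of 36.3 kb, against 21.2 kb for all genes. The part of window length in the counts over the span was not tested. Among the 18 members in the middle of the members' length range, with windows of 26.1 to 64.1 kb, 9 had peaks of all 8 lists. Of the 5284 protein-coding genes with windows of those lengths, 55.5% did. When only the 2 kb on either side of each gene end was read, 11 members had all 8 lists, against 31.1% of all genes, and the median number of lists per gene was 5 among members, against 6 among all genes. At the ends, H3K4me3 was found at 24 members (61.5% of all genes), H3K9ac at 16 (50.3%), H3K27ac at 21 (63.1%) and H3K18ac at 27 (68.4%). There, H4K8ac was found at 26 (66.9%), H3K23ac at 22 (57.4%), H2AK5ac at 14 (39.8%) and H3K14ac at all 36 (85.0%).

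In each list the smallest width was also the commonest, with a share of peaks from 20.0% for H3K27ac to 80.9% for H3K14ac. Counting only wider peaks, 11 members had all 8 lists over the span, against 18.6% of all genes. Wider H3K4me3 peaks were found at 23 members (59.4% of all genes), H3K9ac at 15 (44.7%), H3K27ac at 27 (68.6%) and H3K18ac at 26 (67.4%). Wider H4K8ac peaks were found at 24 (64.1%), H3K23ac at 15 (45.6%), H2AK5ac at 14 (24.4%) and H3K14ac at 27 (68.0%). H3K9ac and H3K23ac lay below the share of all genes in this count, and the other 6 lists lay above it.

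**Figure D1:**
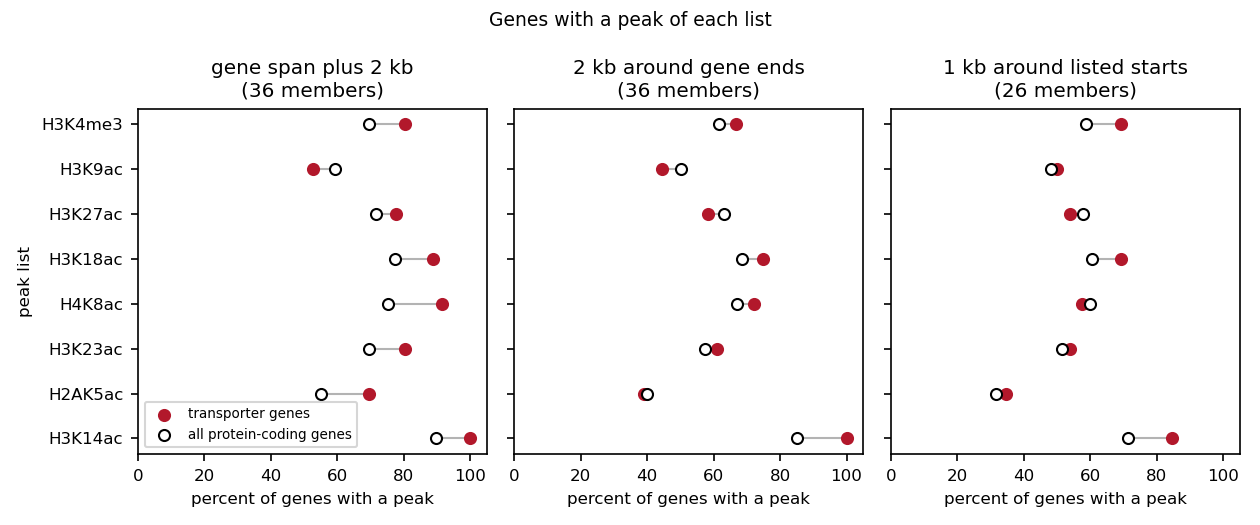
Percent of genes with a peak of each of the 8 lists (rows) over the gene span plus 2 kb (left), within 2 kb of the gene ends (middle) and within 1 kb of a listed start (right), for the transporter genes (red, filled) and for all protein-coding genes (black, open). Over the span the transporter genes lie above all genes in every list but H3K9ac, where 52.8% stand against 59.2%; at gene ends and starts some lists lie on either side.

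Per kb of window, the members' median coverage summed over the 8 lists was near that of all genes, and single lists lay on either side. The median was 139 bases per kb, against 150 for all genes, and the members ran from 23.6 to 973. By list, the medians were 17.7 bases per kb for members against 17.3 for all genes for H3K4me3, 20.8 against 18.6 for H3K27ac, and 43.2 against 38.7 for H3K14ac. They were 20.2 against 20.2 for H3K18ac, 19.7 against 21.5 for H4K8ac and 13.3 against 14.1 for H3K23ac. The H3K9ac median was lower in the members, at 2.97 against 7.15 bases per kb, and the H2AK5ac median was higher, at 4.62 against 2.45. In a bulk library, a mark that few cells carry cannot be told apart from a weak mark that all cells carry.

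**Figure D2:**
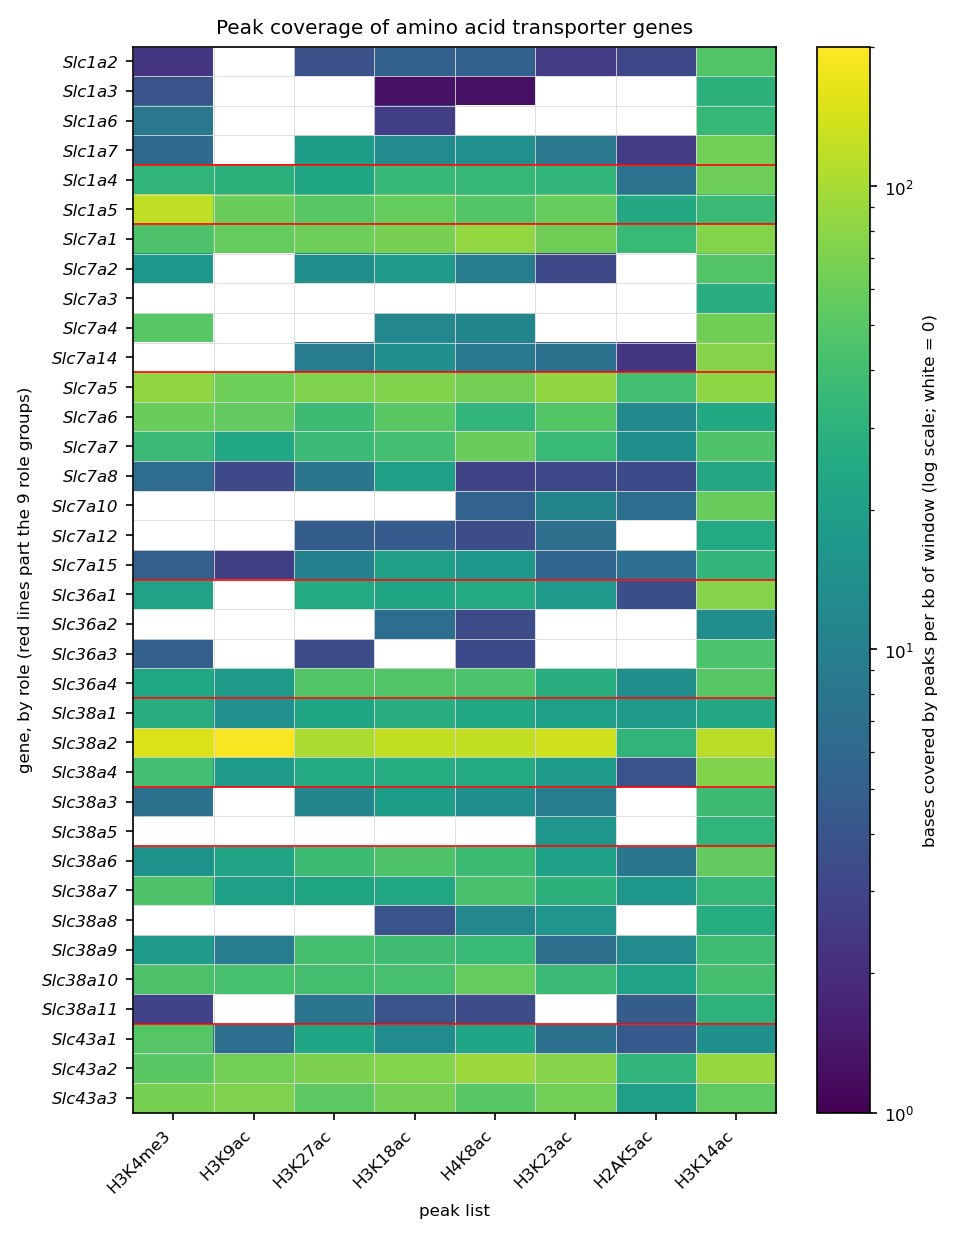
Bases covered by peaks per kb of window, on a log colour scale, for the 36 transporter genes (rows, in 9 role groups parted by red lines) and the 8 peak lists (columns), with white for no peak. The H3K14ac column is filled in all 36 genes and the H3K9ac column in 19, and Slc38a2 is the brightest row.

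Slc38a2 (gene ID 67760, chr15:96687392-96699728 in GRCm38.p6), a sodium-coupled system A transporter that rises when amino acids run short, had the most covered bases per kb of all 36 genes, 973. Its 16.3 kb window held 2496 bases of H3K4me3, 3071 of H3K9ac, 1690 of H3K27ac, 1999 of H3K18ac, 2007 of H4K8ac, 2229 of H3K23ac, 518 of H2AK5ac and 1890 of H3K14ac. Of all protein-coding genes, 97.4% had fewer covered bases per kb.

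The other system A genes lie on the same chromosome. Slc38a1 (gene ID 105727, chr15:96571418-96643438), 44.0 kb from Slc38a2, had 179 bases per kb, with 2061 of H3K4me3, 1111 of H3K9ac, 1706 of H3K27ac, 2166 of H3K18ac, 1808 of H4K8ac, 1512 of H3K23ac, 1369 of H2AK5ac and 1877 of H3K14ac in its 76.0 kb window. Slc38a4, 295 kb beyond Slc38a2, had peaks of all 8 lists and 233 bases per kb, of which H3K14ac made up 31.6%. So all 3 system A genes carried every mark, with the highest coverage per kb at Slc38a2 in each list.

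The system N transporters, which carry glutamine with proton exchange, were low. Slc38a3 (gene ID 76257, chr9:107651154-107668968) had 157 bases of H3K4me3, 243 of H3K27ac, 416 of H3K18ac, 306 of H4K8ac, 206 of H3K23ac and 828 of H3K14ac, and no H3K9ac or H2AK5ac peak. Slc38a5 (gene ID 209837, chrX:8271381-8280179) had 206 bases of H3K23ac and 414 of H3K14ac and nothing in the other 6 lists. Neither system N gene had all 8 lists.

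The exchangers of the Slc1 family, Slc1a4 and Slc1a5, both had all 8 lists. Slc1a5 (gene ID 20514, chr7:16781334-16798274), the glutamine exchanger ASCT2, had 456 bases per kb, with 2518 of H3K4me3, 1255 of H3K9ac, 1057 of H3K27ac, 1202 of H3K18ac, 1025 of H4K8ac, 1204 of H3K23ac, 516 of H2AK5ac and 772 of H3K14ac. Slc1a4 (gene ID 55963, chr11:20302180-20332713), which exchanges serine and alanine, had 257 bases per kb, with 1102 of H3K4me3, 1030 of H3K9ac, 776 of H3K27ac, 1202 of H3K18ac, 1177 of H4K8ac, 1156 of H3K23ac, 258 of H2AK5ac and 2164 of H3K14ac. Per kb of window, Slc1a5 was above Slc1a4 in every list but H3K14ac.

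The 4 excitatory glutamate transporters of the same family, best known from glia, neurons and retina, had less. Slc1a2, Slc1a3, Slc1a6 and Slc1a7 all lacked H3K9ac, and their median was 57.2 bases per kb. Slc1a7 (gene ID 242607, chr4:107968406-108013529) had the most of them, 129 bases per kb, with 314 of H3K4me3, 946 of H3K27ac, 638 of H3K18ac, 715 of H4K8ac, 412 of H3K23ac, 129 of H2AK5ac and 3175 of H3K14ac. Slc1a3 (gene ID 20512, chr15:8634124-8710807), the glial carrier GLAST, had the fewest, 36.5, with 314 bases of H3K4me3, 104 of H3K18ac, 102 of H4K8ac and 2426 of H3K14ac. H3K14ac thus made up 82.4% of the covered bases at Slc1a3, 75.6% at Slc1a6, 68.3% at Slc1a2 and 50.2% at Slc1a7.

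Among the cationic amino acid transporters, which import arginine and lysine, Slc7a1 stood apart from its relatives. Slc7a1 (gene ID 11987, chr5:148327410-148399904), the widely expressed carrier CAT1, had 125 peaks of the 8 lists in its 76.5 kb window, the most of any member. They covered 3488 bases with H3K4me3, 4364 with H3K9ac, 4728 with H3K27ac, 5118 with H3K18ac, 6514 with H4K8ac, 4834 with H3K23ac, 2766 with H2AK5ac and 5747 with H3K14ac. This came to 491 bases per kb, above 86.6% of all genes. Slc7a2, the inducible relative, had 6 lists and 110 bases per kb, without H3K9ac and H2AK5ac.

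Slc7a3 (gene ID 11989, chrX:101079146-101090452), the third arginine carrier of this kind, had 414 bases of H3K14ac and no peak of another list. Slc7a4 had 4 lists and 137 bases per kb in a short window of 8.87 kb. Slc7a14, a sequence relative, had 6 lists and 77 peaks, of which 49 were H3K14ac peaks, and no H3K4me3 or H3K9ac peak in 112 kb. Slc7a3 and Slc38a5 are the 2 members on chromosome X, where 22.5% of 966 genes had all 8 lists, against 46.1% of 20661 autosomal genes. The part of the chromosome in their low coverage was not tested.

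The light chains of the heteromeric transporters spanned almost the whole range. Slc7a5 (gene ID 20539, chr8:121881146-121907686), the leucine and tryptophan exchanger LAT1, had 563 bases per kb, with 2534 of H3K4me3, 1899 of H3K9ac, 2192 of H3K27ac, 2235 of H3K18ac, 2038 of H4K8ac, 2545 of H3K23ac, 1252 of H2AK5ac and 2485 of H3K14ac. Slc7a6 (gene ID 330836, chr8:106168219-106198714), the exchanger y+LAT2, had 324 bases per kb, with 2084 of H3K4me3, 1925 of H3K9ac, 1312 of H3K27ac, 1765 of H3K18ac, 1124 of H4K8ac, 1667 of H3K23ac, 437 of H2AK5ac and 865 of H3K14ac. Its relative Slc7a7, y+LAT1, had 295 bases per kb in all 8 lists. The windows of 12 of the 36 members reached into another protein-coding gene, those of Slc7a6 into Pla2g15 and Slc7a6os and that of Slc7a7 into Oxa1l, and such peaks were counted for both genes.

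Slc7a8, the exchanger LAT2, also had all 8 lists but only 71.8 bases per kb, and Slc7a15 had all 8 lists and 101. At Slc7a8 the H3K9ac, H3K23ac and H4K8ac lists contributed 1 peak each, of 204, 206 and 189 bases. Slc7a10, which carries small neutral amino acids in brain, had 4 lists and 81.0 bases per kb, without H3K4me3. Slc7a12 (gene ID 140918, chr3:14480697-14505819) had the fewest, 45.5 bases per kb, with 140 of H3K27ac, 136 of H3K18ac, 102 of H4K8ac, 206 of H3K23ac and 741 of H3K14ac. Of the 7 light chains, 5 had all 8 lists over the span and 2 at the gene ends.

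The heavy chains of heteromeric transporters also differed from each other in coverage, and their pairing with light chains was not measured. Slc3a2, the widely expressed heavy chain CD98, had all 8 lists and 716 bases per kb, above every member but Slc38a2. Slc3a1, the heavy chain known from kidney and gut, had 3 lists and 60.8 bases per kb. Both were taken from a list of pathway genes and are not members of the set.

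The proton-coupled Slc36 carriers differed widely. Slc36a4 (gene ID 234967, chr9:15709738-15742388) had 275 bases per kb, with 872 of H3K4me3, 659 of H3K9ac, 1772 of H3K27ac, 1745 of H3K18ac, 1632 of H4K8ac, 1038 of H3K23ac, 517 of H2AK5ac and 1850 of H3K14ac. The other 3 form a cluster on chromosome 11, with gaps of 6.75 kb between Slc36a3 and Slc36a2 and 19.2 kb between Slc36a2 and Slc36a1. Within it, Slc36a1, the lysosomal carrier PAT1, had 7 lists and 193 bases per kb, whereas Slc36a3 had 4 lists and 56.7. Slc36a2 (gene ID 246049, chr11:55158468-55185099), in the middle, had the lowest coverage of all 36 genes, 23.6 bases per kb, with 208 bases of H3K18ac, 102 of H4K8ac and 414 of H3K14ac.

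The remaining Slc38 genes include lysosomal carriers. Slc38a9 (gene ID 268706, chr13:112656189-112738752), the lysosomal arginine sensor upstream of mTORC1, had 203 bases per kb, with 1614 of H3K4me3, 816 of H3K9ac, 3637 of H3K27ac, 3416 of H3K18ac, 3053 of H4K8ac, 618 of H3K23ac, 1126 of H2AK5ac and 3330 of H3K14ac. Slc38a10 (gene ID 72055, chr11:120103951-120151351) had the most of this group, 329 bases per kb, with 2340 of H3K4me3, 2181 of H3K9ac, 2142 of H3K27ac, 2217 of H3K18ac, 2917 of H4K8ac, 1886 of H3K23ac, 1089 of H2AK5ac and 2141 of H3K14ac. Slc38a7, the lysosomal glutamine exporter, had 237 bases per kb, and Slc38a6 had 243, each in all 8 lists.

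At the other end of this group, Slc38a11 (gene ID 320106, chr2:65313663-65364026) had 53.5 bases per kb, with 157 of H3K4me3, 433 of H3K27ac, 222 of H3K18ac, 183 of H4K8ac, 258 of H2AK5ac and 1656 of H3K14ac. Slc38a8 had 4 lists and 57.9 bases per kb. Neither had an H3K9ac peak. In 4 of the 6 genes of this group every list was present.

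All 3 Slc43 genes carried all 8 lists. Slc43a2 (gene ID 215113, chr11:75529915-75577575), the leucine and phenylalanine facilitator LAT4, had 548 bases per kb and 101 peaks, with 2667 bases of H3K4me3, 3377 of H3K9ac, 3606 of H3K27ac, 3884 of H3K18ac, 4614 of H4K8ac, 3970 of H3K23ac, 1701 of H2AK5ac and 4481 of H3K14ac. Slc43a3 (gene ID 58207, chr2:84936545-84958509), a relative that carries purine nucleobases, had 447 bases per kb, with 1758 of H3K4me3, 1852 of H3K9ac, 1369 of H3K27ac, 1700 of H3K18ac, 1298 of H4K8ac, 1674 of H3K23ac, 518 of H2AK5ac and 1434 of H3K14ac. Slc43a1 (gene ID 72401, chr2:84838855-84863586), the facilitator LAT3, lies 73.0 kb away from Slc43a3 and had 141 bases per kb, with 1431 of H3K4me3, 204 of H3K9ac, 653 of H3K27ac, 377 of H3K18ac, 649 of H4K8ac, 206 of H3K23ac, 129 of H2AK5ac and 414 of H3K14ac. Per kb of window, Slc43a1 was below both relatives in every list.

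**Figure D3:**
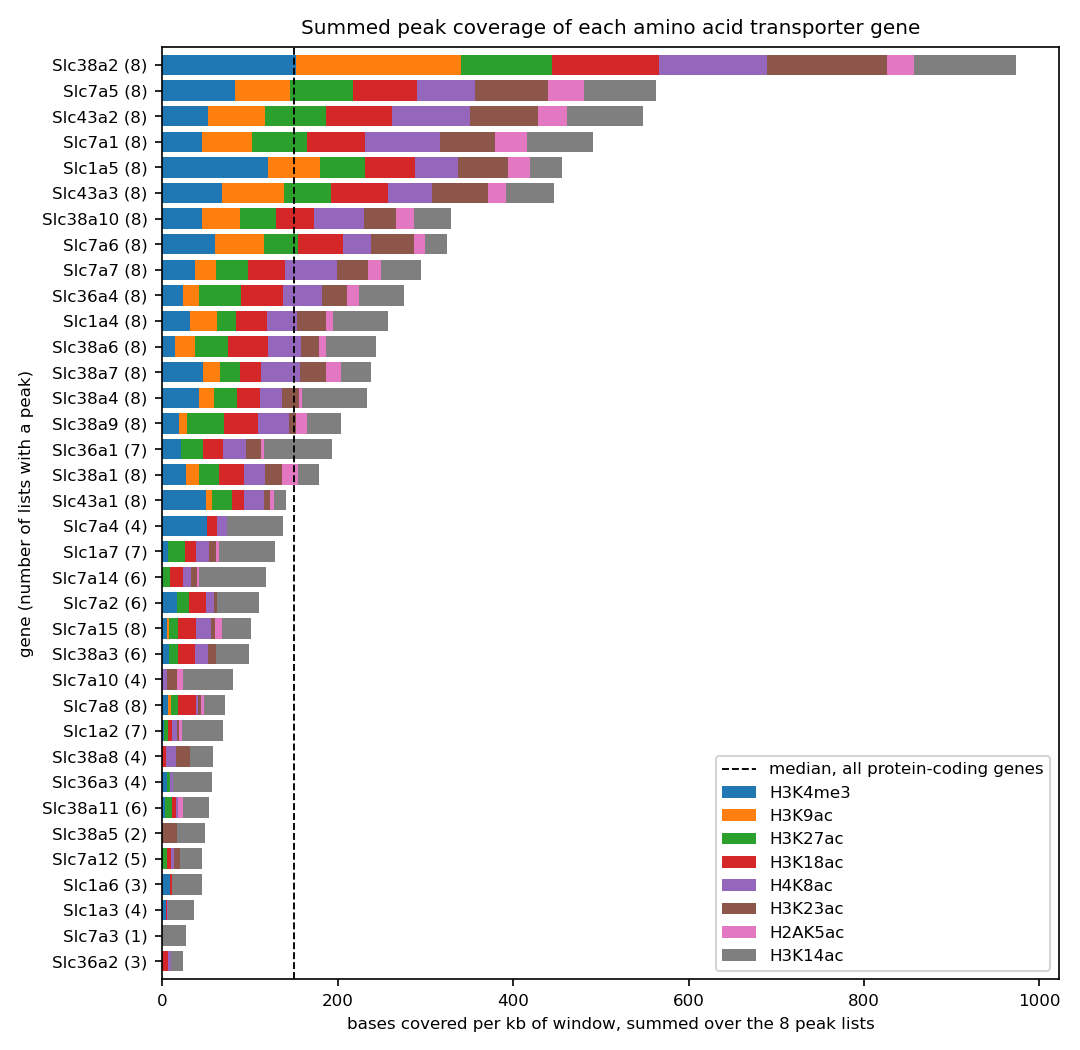
Bases covered per kb of window, stacked over the 8 peak lists, for the 36 transporter genes in descending order, with the number of lists that had a peak beside each symbol and the median of all protein-coding genes, 150, as a dashed line. The bars run from 973 at Slc38a2 to 23.6 at Slc36a2, and the grey H3K14ac part makes up most of the bar in the 6 lowest genes.

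The make-up of the coverage differed between members with all 8 lists and members with fewer. In the 19 members with all 8 lists, H3K14ac made up a median of 15.3% of the covered bases, between 7.74% at Slc7a6 and 33.8% at Slc7a8, against 15.6% in the 9751 protein-coding genes with all 8 lists. In the 17 members with 1 to 7 lists it made up a median of 57.2%, between 38.4% at Slc38a3 and 100% at Slc7a3, against 42.5% in the 10569 genes with 1 to 7 lists. The members' 2 ranges did not overlap, but the ranges over all genes were not measured. A gene that lacks lists has no bases of those lists beside its H3K14ac, and at Slc7a3, with H3K14ac alone, 100% follows by construction. Of the H3K14ac peaks in the whole list, 80.9% had its smallest width, 138 bases.

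Several members held more than 1 run of overlapping peaks that included all 8 lists. Peaks of the 8 lists that overlapped were joined into merged regions, of which 10709 of 819679 in the genome held all 8 lists. Joining ran from peak to peak, so the lists of a merged region need not share a base. Of the 36 members, 13 had at least 1 such region in their windows, against 31.1% of all protein-coding genes. At least 2 such regions were found in 7 members, against 7.75% of all genes, and at least 3 in 2 members, against 2.9%. Slc7a1 had 6, a number that 0.443% of all genes reached. Slc7a5 had 3, and Slc7a7, Slc38a2, Slc38a10, Slc43a2 and Slc43a3 had 2 each. The window of Slc7a1 was 76.5 kb long, against a median of 21.2 kb over all genes. The part of window length in these counts was not tested.

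At Slc7a1, 1 of the 6 regions, chr5:148398491-148400407, covered a listed start, and the other 5 lay inside the gene, with midpoints 6561, 19412, 30998, 32956 and 50476 bases from the nearest listed start. The widest of those inside, chr5:148361106-148362529, was 1424 bases wide. In the region centred 6561 bases from a start, the H3K9ac peak overlapped no H3K4me3, H3K27ac or H3K18ac peak. At Slc43a2 both regions, of 609 and 506 bases, lay inside the gene, 17991 and 39312 bases from a start, and no H2AK5ac peak lay within 1 kb of its starts. At Slc38a10 a region of 1648 bases covered the start and another of 797 bases lay 8523 bases away. The 2 regions of Slc38a2 lay side by side, 1 over the start and 1 centred 826 bases into the gene.

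A different kind of merged region held H3K27ac, H3K18ac and H4K8ac peaks without H3K4me3, a combination usual at enhancers. Of the 36 members, 19 had at least 1, against 34.4% of all genes. Slc38a9 had 8, which 2.82% of all genes reached, Slc38a6 had 5 and Slc43a2 had 4. Slc36a4 and Slc7a15 had 3 each. The windows of Slc38a9 and Slc38a6 were 86.6 and 79.3 kb long, and the part of window length in these numbers was not tested.

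**Figure D4:**
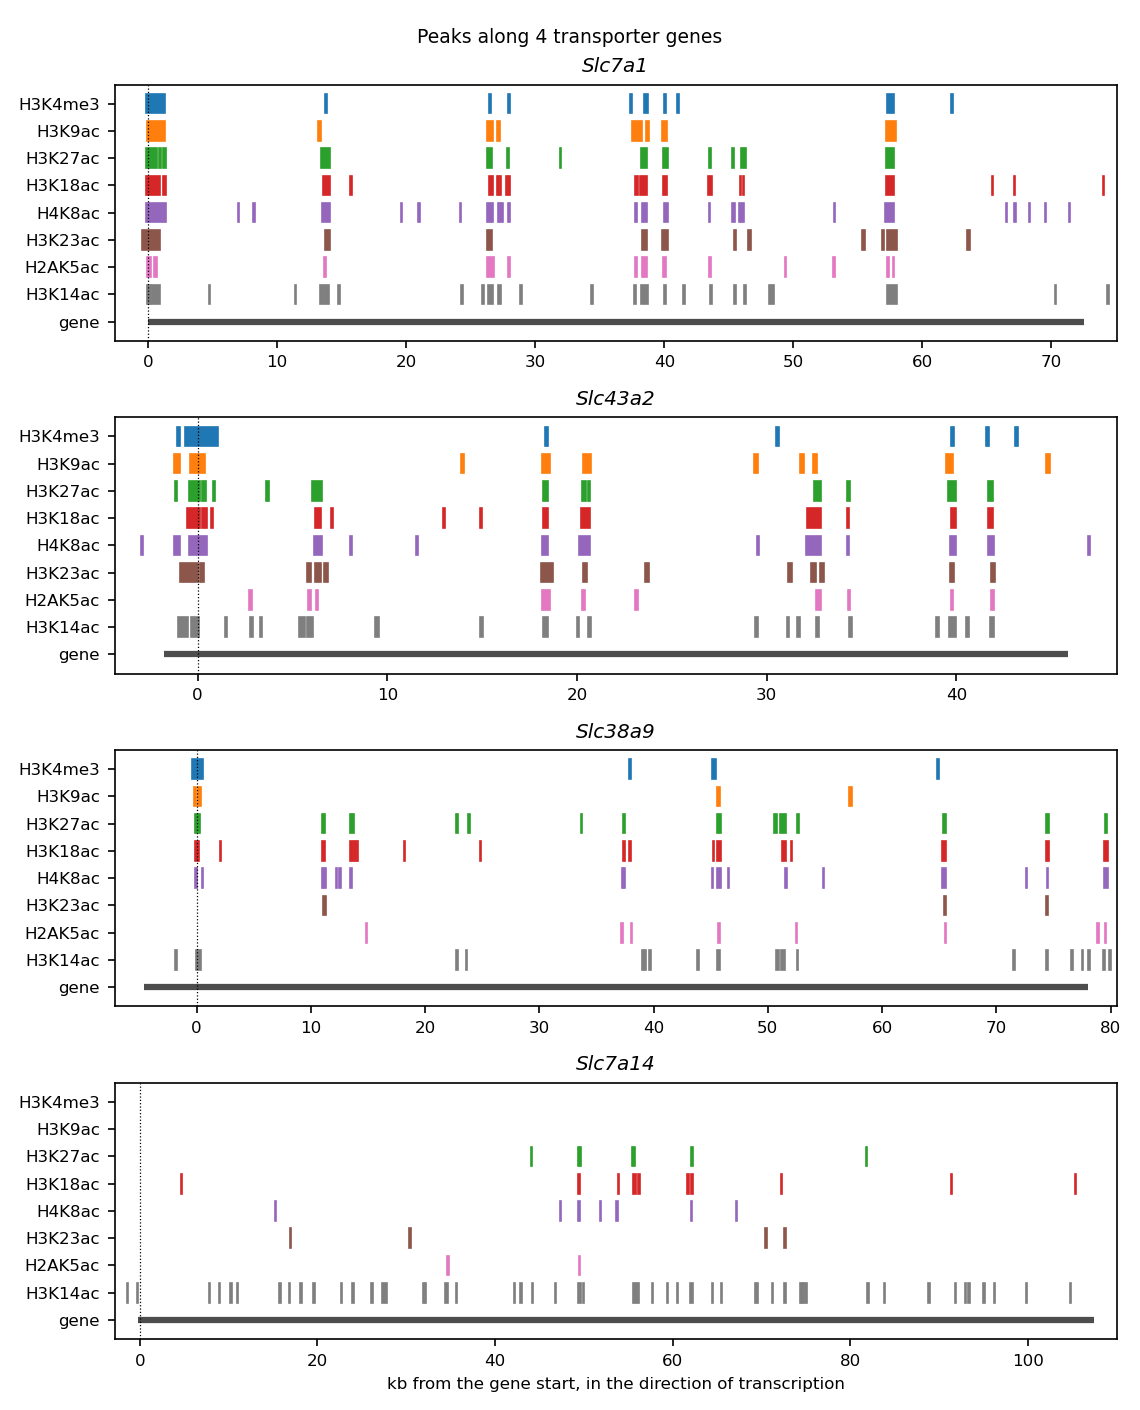
Peaks of the 8 lists (rows) along Slc7a1, Slc43a2, Slc38a9 and Slc7a14, against the distance in kb from the listed gene start (dotted line) in the direction of transcription, with the annotated gene as a dark bar; each peak is drawn with a thin outline so that narrow ones stay visible. Slc7a1 has 6 merged regions with peaks of all 8 rows, which do not always share the same bases. In Slc38a9 columns of acetylation without H3K4me3 recur inside the gene, and in Slc7a14 the H3K4me3 and H3K9ac rows are empty.

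The widest H3K4me3 peaks of the set were 1725 bases at Slc43a2, 1572 at Slc7a6 and 1484 at Slc7a5, with 1483 at Slc7a1 and 1464 at Slc1a5 just behind. The peaks of Slc43a2, Slc7a6 and Slc7a1 covered a listed start, and those of Slc7a5 and Slc1a5 had their midpoints 348 and 651 bases from a gene end. The median of the widest H3K4me3 peak was 872 bases over the 29 members with one, against 893 over 15238 genes, and 10 members, or 34.5%, had a peak of at least 1 kb, against 40.1%. The widest H3K27ac peaks, of 901 bases at Slc7a1, 852 at Slc36a4 and 776 at Slc1a4, also covered starts. Their median was 492 bases over 28 members, against 452 over 15677 genes. The widest peaks of Slc38a6 also covered the start of Trmt5, a neighbour, so they cannot be given to Slc38a6 alone.

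In other members the widest peak lay far from the start. The widest H3K27ac peak of Slc38a9 was 523 bases wide and lay 51312 bases from the listed start. In Slc7a14 it was 322 bases wide and 49530 bases away, and in Slc1a2 286 bases wide and 58622 bases away. Slc7a5 had its widest H3K27ac peak, of 683 bases, 9194 bases inside the nearer gene end.

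Starts with strand were listed for 26 of the 36 members, and 17491 protein-coding genes in all. Slc43a3, Slc7a12, Slc1a5, Slc7a2, Slc7a5, Slc38a3, Slc36a2, Slc38a1, Slc7a4 and Slc7a3 were not among them. Within 1 kb of a listed start, H3K4me3 was found at 18 of the 26 members (58.8% of genes with listed starts), H3K9ac at 13 (48.1%), H3K27ac at 14 (57.9%) and H3K18ac at 18 (60.6%). H4K8ac was found at 15 members (60.0%), H3K23ac at 14 (51.6%), H2AK5ac at 9 (31.6%) and H3K14ac at 22 (71.4%). At 8 members all 8 lists were present around 1 start, against 26.3% of genes, and 2 members had no list there, against 20.0%.

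Those 8 members were Slc1a4, Slc7a1, Slc7a6, Slc7a7, Slc36a4, Slc38a2, Slc38a7 and Slc38a10. The 2 with nothing were Slc1a2 and Slc38a5. Around the start of Slc38a2, the 2 kb window held 1412 bases of H3K4me3, 1527 of H3K9ac, 1344 of H3K27ac, 1377 of H3K18ac, 1291 of H4K8ac, 1533 of H3K23ac, 260 of H2AK5ac and 927 of H3K14ac. Over the 14 members with 6 to 8 lists near a start, the median H2AK5ac coverage within 1 kb was 129 bases, the smallest width of a peak in that list.

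**Figure D5:**
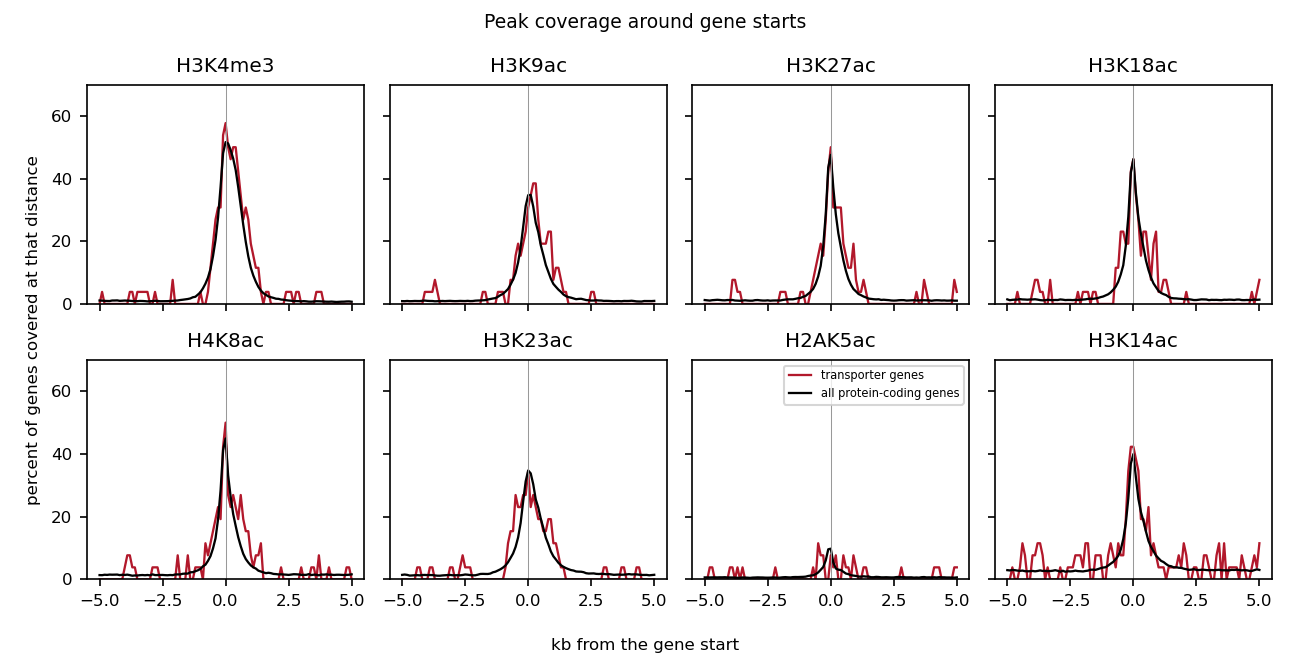
Percent of genes whose sequence was covered by a peak of each list (panels) at distances from 5 kb before to 5 kb after the gene start, for the 26 transporter genes with a listed start (red) and the 17491 protein-coding genes with one (black). At the start itself H3K4me3 covered 57.7% of the transporter genes, against 51.6% of all genes; for a gene with several starts, the start with the most covered bases within 1 kb was used.

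H3K4me3 and acetylation parted at some starts. Slc38a4 had 985 bases of H3K4me3 near its upstream start, with 408 of H3K9ac and 431 of H3K23ac, but no H3K27ac or H2AK5ac. Its other 2 listed starts had 1 list or none. Slc1a3, Slc1a6 and Slc7a8 also had H3K4me3 without H3K27ac, so that 4 of the 18 members with H3K4me3 at a start lacked H3K27ac there, against 7.52% of 10278 genes. At Slc1a3, Slc7a8 and Slc1a6 the H3K4me3 was narrow, 157, 269 and 321 bases. The peak of Slc1a6 covered its listed start but also touched the neighbouring gene Ccdc105, so it cannot be given to Slc1a6 alone.

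Slc38a9 had 987 bases of H3K4me3 around its start, which lies inside the annotated span, and 408 of H3K9ac, 396 of H3K27ac, 409 of H3K18ac and 369 of H4K8ac, without H3K23ac or H2AK5ac. Slc43a2 had the most H3K4me3 of any member near a start, 1735 bases, with 873 of H3K9ac and 854 of H3K27ac, and no H2AK5ac. In all, H2AK5ac was absent from 9 of the 18 members with H3K4me3 at a start, against 49.1% of genes. Slc36a1 had H3K4me3, at 755 bases, and every acetylation but H3K9ac.

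The start sequences differed in their content of CG dinucleotides, written CpG, which are frequent in the promoters of widely expressed genes. The promoters are given from RefSeq in GRCm38.p6, from 250 bases before to 50 bases after the start, in the direction of transcription, with every CG in capitals. Slc38a2 and Slc7a1 are shown because they had the densest start and the most regions of all 8 lists, Slc38a4 because it had 6 lists with few CG, Slc1a6 because it had many CG with 2 lists, and Slc1a2 because it had no list. They lie at chr15:96699679-96699978 (minus strand), chr5:148399855-148400154 (minus), chr15:97055907-97056206 (minus), chr10:78780246-78780545 (plus) and chr2:102706188-102706487 (plus).
Slc38a2: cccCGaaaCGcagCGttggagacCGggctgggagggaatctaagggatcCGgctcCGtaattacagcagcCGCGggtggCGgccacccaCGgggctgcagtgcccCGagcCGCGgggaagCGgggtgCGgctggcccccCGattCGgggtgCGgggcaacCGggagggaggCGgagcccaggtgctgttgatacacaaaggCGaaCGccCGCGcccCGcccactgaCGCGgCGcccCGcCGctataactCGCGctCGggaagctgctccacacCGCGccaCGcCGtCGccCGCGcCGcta
Slc7a1: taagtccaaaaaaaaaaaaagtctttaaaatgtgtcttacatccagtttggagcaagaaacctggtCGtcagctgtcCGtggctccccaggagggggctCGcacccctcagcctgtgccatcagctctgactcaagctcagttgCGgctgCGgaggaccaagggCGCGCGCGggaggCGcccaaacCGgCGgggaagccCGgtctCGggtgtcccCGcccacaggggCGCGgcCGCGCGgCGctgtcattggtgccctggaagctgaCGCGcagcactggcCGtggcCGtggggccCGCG
Slc38a4: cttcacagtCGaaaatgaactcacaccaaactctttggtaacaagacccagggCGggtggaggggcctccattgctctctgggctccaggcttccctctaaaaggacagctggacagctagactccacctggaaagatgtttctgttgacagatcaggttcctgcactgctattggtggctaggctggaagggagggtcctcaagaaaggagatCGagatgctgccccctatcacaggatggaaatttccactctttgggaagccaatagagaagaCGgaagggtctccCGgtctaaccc
Slc1a6: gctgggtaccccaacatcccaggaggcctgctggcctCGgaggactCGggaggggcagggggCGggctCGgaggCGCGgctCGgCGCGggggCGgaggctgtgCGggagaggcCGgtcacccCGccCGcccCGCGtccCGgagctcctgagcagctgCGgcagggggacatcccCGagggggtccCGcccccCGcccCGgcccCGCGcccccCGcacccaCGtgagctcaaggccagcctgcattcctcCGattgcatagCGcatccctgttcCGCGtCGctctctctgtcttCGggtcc
Slc1a2: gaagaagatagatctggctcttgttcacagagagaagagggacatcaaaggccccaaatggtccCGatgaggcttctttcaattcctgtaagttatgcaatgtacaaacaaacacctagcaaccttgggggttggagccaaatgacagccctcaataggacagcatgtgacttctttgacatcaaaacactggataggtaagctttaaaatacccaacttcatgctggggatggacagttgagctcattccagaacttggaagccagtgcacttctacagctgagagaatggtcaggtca

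These 300 bases held 41 CG in Slc38a2, 27 in Slc7a1, 5 in Slc38a4, 32 in Slc1a6 and 1 in Slc1a2. Over the 36 listed promoters of the 26 members the median was 14, against 13 over 21262 promoters of all protein-coding genes. For a gene with several starts, the start with the most lists was taken here, and among equal starts the one at the lowest position. The 14 members with 6 to 8 lists near a start had a median of 21.5 CG at that start, with a range of 5 to 41. The 10 members with 0 to 2 lists had a median of 9.5, with a range of 1 to 32, so the ranges overlapped. CG content by number of lists was not measured over all genes. Slc7a10, with 24 CG and 3 lists, was another CG-rich start with few lists.

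Of the 300 bases shown for Slc38a2, H3K4me3 and H3K9ac peaks covered all, H3K18ac 296, H3K27ac 294, H3K23ac 273, H3K14ac 256 and H4K8ac 184, and H2AK5ac none. At Slc7a1, every list reached into the promoter, with 300 bases of H3K23ac, 236 of H3K27ac, 215 of H4K8ac, 196 of H3K4me3, 196 of H3K18ac, 156 of H3K14ac, 145 of H2AK5ac and 142 of H3K9ac. At Slc38a4, H3K4me3 covered 232 bases, H3K18ac 104, H3K14ac 103 and H4K8ac 102. At Slc1a6, H3K4me3 covered 217 bases, with the peak that also touched Ccdc105, and H3K14ac covered 96.

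Several transporter genes are known targets of the amino acid response, in which C/EBP and ATF family factors bind composite elements with the core TGATGNAA. This motif was searched on both strands of each promoter. It stood in 3 of the 36 member promoters, or 8.33%, against 3.60% of all promoters. The 3 promoters belong to 2 genes, Slc1a4 and Slc7a7, and the starts of Slc7a7 overlap, so that 1 of its matches was counted in 2 promoters. The promoter of Slc1a4, chr11:20332664-20332963 (minus strand), is shown because its match begins 4 bases before the start and H3K4me3, H3K9ac, H3K27ac, H3K18ac, H4K8ac and H3K14ac peaks covered all 300 bases. The match is in capitals and reads on the opposite strand.
Slc1a4: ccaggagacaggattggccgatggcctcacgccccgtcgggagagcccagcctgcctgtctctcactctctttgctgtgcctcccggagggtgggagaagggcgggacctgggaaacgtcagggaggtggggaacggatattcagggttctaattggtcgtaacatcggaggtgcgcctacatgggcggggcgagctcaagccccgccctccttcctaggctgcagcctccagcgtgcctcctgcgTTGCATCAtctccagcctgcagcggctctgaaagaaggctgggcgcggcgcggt

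The CCAAT box, searched in the same way on both strands, stood in 14 of the 36 member promoters, or 38.9%, against 38.2% of all promoters. No match says only that these letters are not in these 300 bases, and a match is a description of the sequence.

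Read counts could be tied to single places for part of the set. A count under a shared name sums reads over unrelated places, so reads were taken only from names with 1 region, which all belong to the H3K14ac list. These lie over 26 of the 36 members, and the 10 members on chromosomes 10 to 13 had none. Over the 331 regions of these 26 genes the H3K14ac library had 4632 reads, H3K27ac 616, H3K4me3 308, H3K18ac 190, H3K23ac 143, H4K8ac 131, H3K9ac 25 and H2AK5ac 15, against 146 in IgG. As these regions are H3K14ac peaks, the high count of that library follows from their choice. The counts therefore do not compare H3K14ac with the other marks or with IgG. The exact Poisson intervals, which cover counting error only, were 448 to 475 CPM (reads scaled to the library total) for H3K14ac, 224 to 263 for H3K27ac and 186 to 233 for H3K4me3, against 337 to 469 for IgG.

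The IgG value came from 1 place. All 146 IgG reads lay in a region of 138 bases inside Slc7a14, chr3:31302368-31302505, where H3K14ac had 17 reads and the other 7 marks none. IgG had 0 reads at the other 25 members, and was above 0 at 0.868% of all genes with such regions. Without that region IgG was at 0, which with 3 counts as the limit allows up to 8.20 CPM.

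H3K14ac reads were spread over the set, with a median of 76.8 reads per kb of region among the 26 members, against 63.9 among 14284 genes. Their order was not that of peak coverage. Slc1a3 had 129 reads per kb (314 reads, 95% interval 280 to 351) and Slc1a2 had 117 (756 reads, 703 to 812), whereas Slc38a2 had 35.4 (67 reads, 51.9 to 85.1) and Slc7a6 had 10.4 (9 reads, 4.12 to 17.1). Reads that overlapped peaks of more than 1 name were discarded by the authors' counting, per the file headers, so places where peaks of several lists meet lose reads. Of the 308 H3K4me3 reads, 253 lay at Slc38a2.

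Other genes of amino acid handling were read from lists of pathway genes. Of 28 genes of amino acid sensing upstream of mTORC1, 15 had all 8 lists, with a median of 293 bases per kb, and all 28 had H3K4me3. Of 10 mitochondrial amino acid carriers, 6 had all 8 lists, with a median of 205 bases per kb, and 8 had H3K4me3. Of 12 other plasma membrane amino acid transporters, 5 had all 8 lists, with a median of 101 bases per kb, and 8 had H3K4me3. The 36 members, at 19 genes with all 8 lists, a median of 139 bases per kb and 29 genes with H3K4me3, lay between these lists in coverage per kb. Over all protein-coding genes, 44.6% had all 8 lists and 69.6% had H3K4me3, with a median of 150 bases per kb.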

How the data were processed

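The deposited table holds read counts of 9 libraries over peak regions, made by the authors with featureCounts 2.0.6 on paired ends without strand, each mate being 1 count and a read over more than 1 name being discarded, per the file headers. Per the submitters' processing notes, the tools were MACS2, STAR, Trim Galore, DESeq2, featureCounts, FastQC and MultiQC, with the builds GRCm38.p6 and mm10. Settings of the aligner and peak caller, and any use of IgG in it: not given in the sources used here.

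The regions under each name were divided among 8 lists so that every list ran in genome order, without overlaps, at its own spacing and smallest width. With widths and without, 0 names broke this order, and 1250 names were divided differently without widths. The procedure was checked on simulated lists. Each list took its name from the library with the most depth-scaled reads per kb of bases that no other name covers, by non-negative least squares. Region starts count from 0 (the smallest is 0) and are given here from 1.

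Genes and promoters came from RefSeq tables of GRCm38.p6. Python 3.11.15 with numpy 2.4.6, pandas 2.3.3, SciPy 1.17.1 and matplotlib 3.10.9 was used. No test was made, as each mark had 1 library, and members are set beside all protein-coding genes. Members, lists and window were chosen with earlier results of these data known. The comparisons at listed starts, of merged regions, of CG content and of H3K14ac shares were added after the values had been seen. So were those of chromosome X, of window lengths and of H3K9ac with the presence of all 8 lists. All members are named. Values in all 8 lists are given for Slc7a1, Slc7a5, Slc1a5, Slc38a2, Slc38a9 and Slc43a3, for the most and least covered member of each of 9 role groups, and for the 3 members with the widest H3K4me3 and H3K27ac peaks. Alternatives were other windows, wider peaks only, another division into lists, peaks of no other gene, midpoints, another library total and a minimum of 10 reads.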

Additional observations from a re-analysis of the deposited data

How the results depend on the processing

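Of 112 values recomputed under an alternative, 98 stayed near the main value and 14 moved, where near means a count within a factor of 1.5, a median within its 95% interval from the order of the members' values, and a CPM (reads scaled to the library total) within its counting interval. With only the 2 kb around both gene ends, 14 members had H2AK5ac, against 25 over the span, and 11 had all 8 lists, against 19. In that window the median coverage of members was 48.05 bases per kb for H3K4me3, against 17.67, 0 for H2AK5ac, against 4.618, and 0 for H3K9ac, against 2.97. With only peaks wider than the commonest width of their list, 15 members had H3K23ac (45.6% of all genes), 14 had H2AK5ac (24.4%) and 11 had all 8 lists (18.6%). Under that setting the median coverage was 0 for H3K9ac, H3K23ac and H2AK5ac and 15.95 bases per kb for H3K14ac. In both settings the H3K9ac median of 0 was counted as near, because its 95% interval reached 0. Both settings read fewer bases or peaks by construction. With at least 10 reads per region over the 9 libraries, the members' CPM were 222.2 for H3K27ac, 102.8 for H3K18ac and 431.3 for H3K14ac, against 243.2, 122.9 and 461.2 without the minimum. IgG had 472.1 CPM when mitochondrial and contig reads were left out of its total, against 398.9. Leaving out the gene flanks, dividing the lists by order and spacing alone, leaving out peaks shared with another gene's window, or counting midpoints moved none of the values. No paired analysis was possible because each antibody had 1 library. With 1 library per mark, neither the spread between animals nor that between preparations can be read. The peaks are the authors' calls, so a gene without a peak had none called at this depth, which ran from 1477463 to 10044130 reads between marks. Covered bases depend on each library's depth and peak width, so a difference in covered bases between lists is not a difference between marks.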
